A study of Mus musculus with 20 samples.

Results

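The core spliceosome genes described here code for the proteins that sit on the small nuclear RNAs of the spliceosome, together with their closest relatives. They were taken from the gene table by name: symbols beginning with Snrp, Snrnp, Sf3a, Sf3b, Prpf or Lsm, followed by a number for the last 5 stems, without pseudogene names, and with a mean of at least 1 CPM, a gene's count scaled to the size of its library. Of 25965 genes in the table, 52 had such a name and all 52 passed the level limit. The lowest, Lsm5, had a mean of 2.32 CPM and the next, Lsm10, 4.99 CPM, so the limit removed no gene. These means use library totals alone, and the CPM levels given below also use TMM scaling factors. All 52 were also among the 16690 genes that passed the filter on low counts and were tested.

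The RNA came from the frontal cortex of C57BL/6 mice at 5 months of age. The mice carried a knock-in change, Q331K, in the endogenous mouse gene for TDP-43 (Tardbp), on no allele (wild type, 6 libraries), on 1 allele (heterozygous, 6 libraries) or on both (homozygous, 8 libraries). The labels name no transgene, Cre line or pooling of animals. TDP-43 is a nuclear RNA-binding protein with a role in splicing, and changes in its gene cause forms of amyotrophic lateral sclerosis. The design asks how gene expression in the cortex differs with 1 and with both changed alleles.

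The spliceosome removes introns from pre-mRNA. Its building blocks are small nuclear ribonucleoproteins (snRNPs), each made of a small nuclear RNA, a ring of Sm or LSm proteins that clasps it, and proteins particular to that RNA. U1 marks the 5′ splice site, U2 the branch point, and the tri-snRNP of U4, U6 and U5 then joins to form the catalytic machine. A rarer class of introns is recognised by the U11/U12 snRNP instead. Neurons are known for a second protein at the first ring position, SmN (Snrpn), made from an imprinted gene, where other cells use SmB (Snrpb).

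Library totals ran from 61282647 to 111440766 counts. Tardbp itself rose with the number of changed alleles (edgeR trend, adjusted p = 0.00252). Its mean level, with the SD between libraries, was 218 ± 5.53 CPM in the 6 wild-type, 230 ± 7.58 in the 6 heterozygous and 245 ± 10.5 in the 8 homozygous libraries. The log2 change between homozygous and wild type was 0.17 (SE 0.03, adjusted p = 0.00372 with edgeR's quasi-likelihood test and Benjamini-Hochberg adjustment over all genes tested), and 0.16 (adjusted p = 0.0604) with tissue scores as covariates. That level does not show the allele, so it does not check the labels. All 10 cortical neuron markers were expressed, with mean levels from 36.8 CPM (Fezf2) to 3743 CPM (Snap25). Their mean z score was 0.24 ± 0.336 in wild type, -0.26 ± 0.39 in heterozygotes and 0.02 ± 0.629 in homozygotes. Their summed level had means of 6372 CPM in wild type, 6159 in heterozygotes and 6168 in homozygotes. Markers of cells from next to the cortex differed between libraries. The ependymal score, a mean z score over 16 cilia genes of ventricle-lining cells, was -0.51 ± 0.209 in wild type and 0.44 ± 0.855 in homozygotes, and 2 of those 16 genes rose in homozygotes. Their summed level was 38.1 to 41.8 CPM in wild type, 40.1 to 51.1 in heterozygotes and 39.5 to 64.3 in homozygotes, and none of the 16 was at 0 in every library. Scores were also higher in homozygotes than in wild type for meninges (means 0.58 and -0.49), choroid plexus (0.36 and -0.36) and the olfactory bulb (0.47 and -0.11). Of these 3 lists 0 genes passed the test. The summed level of the olfactory bulb list was 77.3, 63.3 and 39.4 CPM in homozygous replicates 8, 5 and 2. The homozygous median was 12.2 CPM, and the highest values were 20.1 in wild type and 10.6 in heterozygotes. Heterozygous replicate 1 stood apart in striatal markers, with a score of 3.23, and without it 0 of the 52 genes were called in the comparisons that use heterozygotes. The tissue scores used as covariates were those of the ependymal, meningeal and olfactory bulb lists only. The neuron, choroid plexus and striatal scores were not among them. The part of these markers in the results was not tested beyond those tissue scores and the libraries left out. In bulk tissue, fewer cells of a type and less RNA per cell cannot be told apart. The labels give separate samples and no animal, litter or batch, so p-values measure only the spread between these samples.

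Within the Sm ring, the pair of genes for the first position was described at the level of sequence, since a comparison of their levels needs reads that can be told apart. Snrpb lies at chr2:130171414-130179403 and Snrpn at chr7:59982495-60140219, both on the minus strand of GRCm38. Their coding sequences, taken from GENCODE M21 transcripts of that build, are 693 and 720 bases long. Over the 693 bases that align without gaps, 558 (80.5%) are identical. The first 150 coding bases of each are given here, from the ATG, with the 19 bases that differ between them in capitals.
Snrpb: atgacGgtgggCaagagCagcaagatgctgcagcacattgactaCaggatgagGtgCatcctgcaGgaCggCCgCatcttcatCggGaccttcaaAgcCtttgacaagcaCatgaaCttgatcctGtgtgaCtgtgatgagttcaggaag
Snrpn: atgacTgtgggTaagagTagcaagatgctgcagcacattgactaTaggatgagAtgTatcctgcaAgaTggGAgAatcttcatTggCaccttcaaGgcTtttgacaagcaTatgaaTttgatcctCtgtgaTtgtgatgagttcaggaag
The longest identical run in the coding alignment is 32 bases, and the principal transcripts share 0 stretches of 50 bases. Another limit touches Snrpn alone: the identifier deposited for it belongs to Gm38393 in GENCODE M21, and it was matched by its symbol and position. Its exons overlap those of Snurf and Gm38393 on the same strand, and Gm18908 on the other, so part of its count may belong to the shared transcript. Snurf had a count of its own in the table, at 191 ± 3.24 CPM in wild type (SD, n = 6).

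Snrpn was by far the most abundant of the 52 genes in this tissue. Its level in wild type ran from 804 to 846 CPM with a median of 833, in heterozygotes from 790 to 822 with a median of 794, and in homozygotes from 767 to 834 with a median of 809. The ranges of the 3 genotypes overlap, with 4 of 6 heterozygous and 3 of 8 homozygous libraries below the lowest wild-type one. Snrpb ran from 44.6 to 48.0 CPM in wild type with a median of 46.4, from 43.3 to 46.6 in heterozygotes with a median of 44.4, and from 38.6 to 47.3 in homozygotes with a median of 43.4. These ranges overlap too, and a single homozygous library, replicate 6, lies well below the others.

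The ratio of Snrpn to Snrpb, in CPM, had a mean of 17.9 (SD 0.613) over the 6 wild-type libraries, 18.0 (SD 0.594) over the 6 heterozygous ones and 18.4 (SD 1.40) over the 8 homozygous ones. The highest ratio, 21.2, came from homozygous replicate 6, the library with the low Snrpb. The log2 ratio differed by 0.04 between homozygous and wild type (two-sided exact permutation test, p = 0.492, adjusted p = 0.784 over the 3 pairs). It differed by 0.0024 between heterozygous and wild type (exact permutation p = 0.935, adjusted 0.935) and by 0.03 between homozygous and heterozygous (exact permutation p = 0.523, adjusted 0.784). None of these differences was larger than the spread between libraries.

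**Figure D1:**
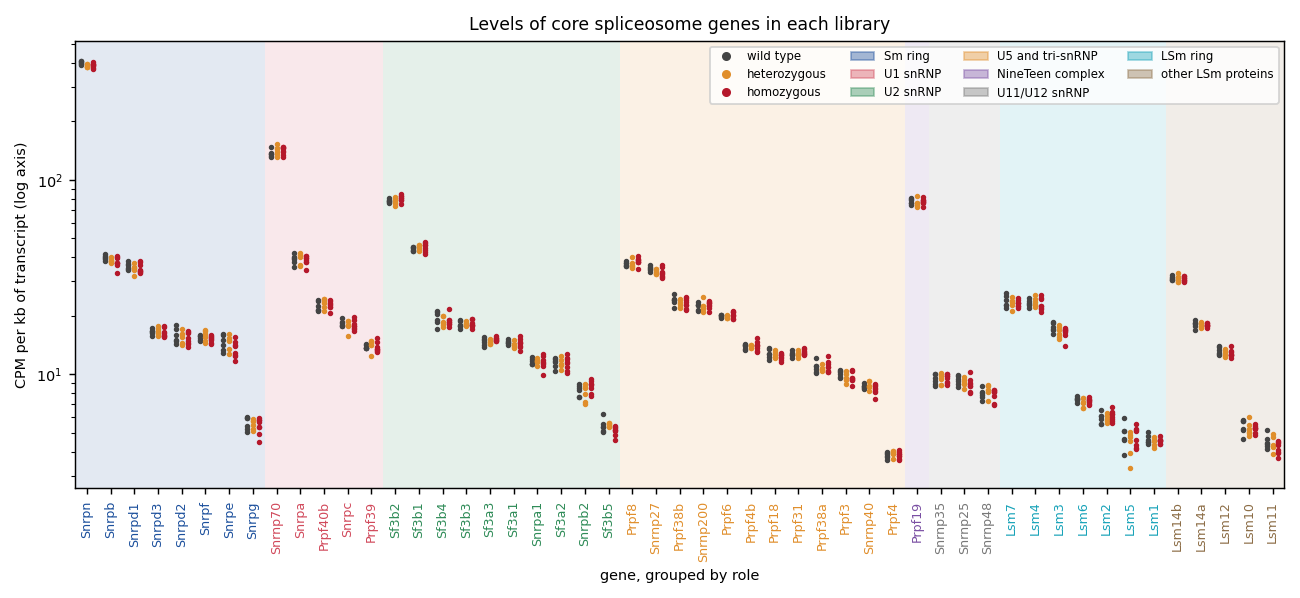
Levels of 51 of the 52 genes in each of the 20 libraries, as CPM per kilobase of the principal transcript on a log axis, with a point per library coloured by genotype and genes grouped by role on shaded bands. Snrpn, with a wild-type mean of 400, stands above all the others, and the genotypes lie on top of each other for nearly every gene.

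To compare genes with each other, levels were divided by the length of the principal annotated transcript. On that scale, in wild type, Snrpn stood at 400 ± 7.72 CPM per kilobase (SD, n = 6) and Snrpb at 39.9 ± 1.01. The other ring genes followed with Snrpd1 at 36.0, Snrpd3 at 16.5, Snrpd2 at 15.9, Snrpf at 15.4, Snrpe at 14.6 and Snrpg at 5.59 CPM per kilobase. This order rests on the length chosen: with the union of all annotated exons, Snrpb was at 23.4, Snrpf at 15.4, Snrpd1 at 15.0, Snrpd3 at 14.6, Snrpd2 at 8.60, Snrpe at 5.34 and Snrpg at 3.76. Snrpn and Snrpb were the first of the ring and Snrpg the last on both scales. Snrpd1, Snrpd2, Snrpe, Snrpf and Snrpg each share over 10% of their 50-base stretches with other annotated genes, mostly pseudogene-like copies, so their counts are uncertain. Snrpd3 overlaps Gucd1 and Snrpf overlaps Ccdc38 on the opposite strand, and the strand setting of the counting is not given in the sources used here.

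Among the U1 proteins, Snrnp70 (U1-70K, which binds the first stem loop of U1) was the highest at 137 ± 5.74 CPM per kilobase. Sf3b2, of the SF3b complex of U2, was at 78.0 ± 1.71. Prpf19, a ubiquitin ligase of the activated spliceosome, was at 77.5 ± 2.45. The branch point protein Sf3b1 followed at 44.0 ± 0.825. Prpf8, the scaffold of the catalytic centre in U5, was at 36.9 ± 0.774 and the U5 helicase Snrnp200 (Brr2) at 22.4 ± 0.872. The 3 genes of the U11/U12 snRNP were at 7.94 (Snrnp48) to 9.40 (Snrnp35), and by the union of exons Snrnp48 was at 1.40, the lowest of the 52, Snrnp25 at 7.33 and Snrnp35 at 8.24. By principal transcript Snrnp25, at 9.30 ± 0.505, and Snrnp35, at 9.40 ± 0.56, differ by less than their spread. Over all roles, with the union of exons in place of the principal transcript, 27 of the 52 values fall by more than 1.5 times, and Snrnp70 drops to 31.1 and Prpf19 to 22.7, while Snrpn stays first at 385. Sf3b5 cannot be placed, since its entry in the table starts after the annotated transcript does.

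Against wild type, 0 of the 52 genes passed the test in homozygotes, where 1.56% of all genes tested passed it (261 of 16690, edgeR's quasi-likelihood test, Benjamini-Hochberg adjusted p under 0.05). By direction, 0 of the 52 rose, beside 0.641% of all genes, and 0 fell, beside 0.923%. At an unadjusted p under 0.05 there were 2 of the 52, Snrpb and Snrnp27, beside 16.1% of all genes. DESeq2 called 0 of the 52 and limma voom 0, and a fit with 3 surrogate variables called 1, Snrnp70. The lowest estimate was -0.11 (Snrpe) on the log2 scale. Their median was -0.0163, beside 0.0013 over all genes tested, and 34 of 52 were below 0, beside 49.4% of all genes. With tissue scores as covariates the median of the 52 was 0.0054.

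The precision of this comparison was high for these genes. For 49 of the 52, the 95% confidence interval of the homozygous change lay within 0.2 of 0 on the log2 scale. For all 52 it lay within 0.3. Of the 16690 genes tested, 9278 and 11730 did so. These include genes of lower level than any of the 52, and the interval counts were not matched by level. The widest bounds were -0.26 (Snrpe) and 0.20 (Lsm5). The libraries of homozygous and wild type were kept apart by 0 of the 52 genes, beside 0.779% of all genes. The coefficient of variation within genotypes had a median of 4.85% over the 52, from 2.12% (Snrpn) to 13.8% (Lsm5), beside a median of 5.82% over the 12637 genes tested whose mean level falls in the same range. Summed over the 52 genes, the mean level was 3659 CPM (SD 25.4) in wild type. It was 3625 (SD 29.7) in heterozygotes and 3652 (SD 45.3) in homozygotes. As an unscaled share of all counts, the means were 0.361% (SD 0.0076) in wild type and 0.362% (SD 0.0075) in heterozygotes. In homozygotes the share was 0.369% (SD 0.0046). The order of the genotypes depends on the scaling, and the signs of small estimates rest on it too.

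**Figure D2:**
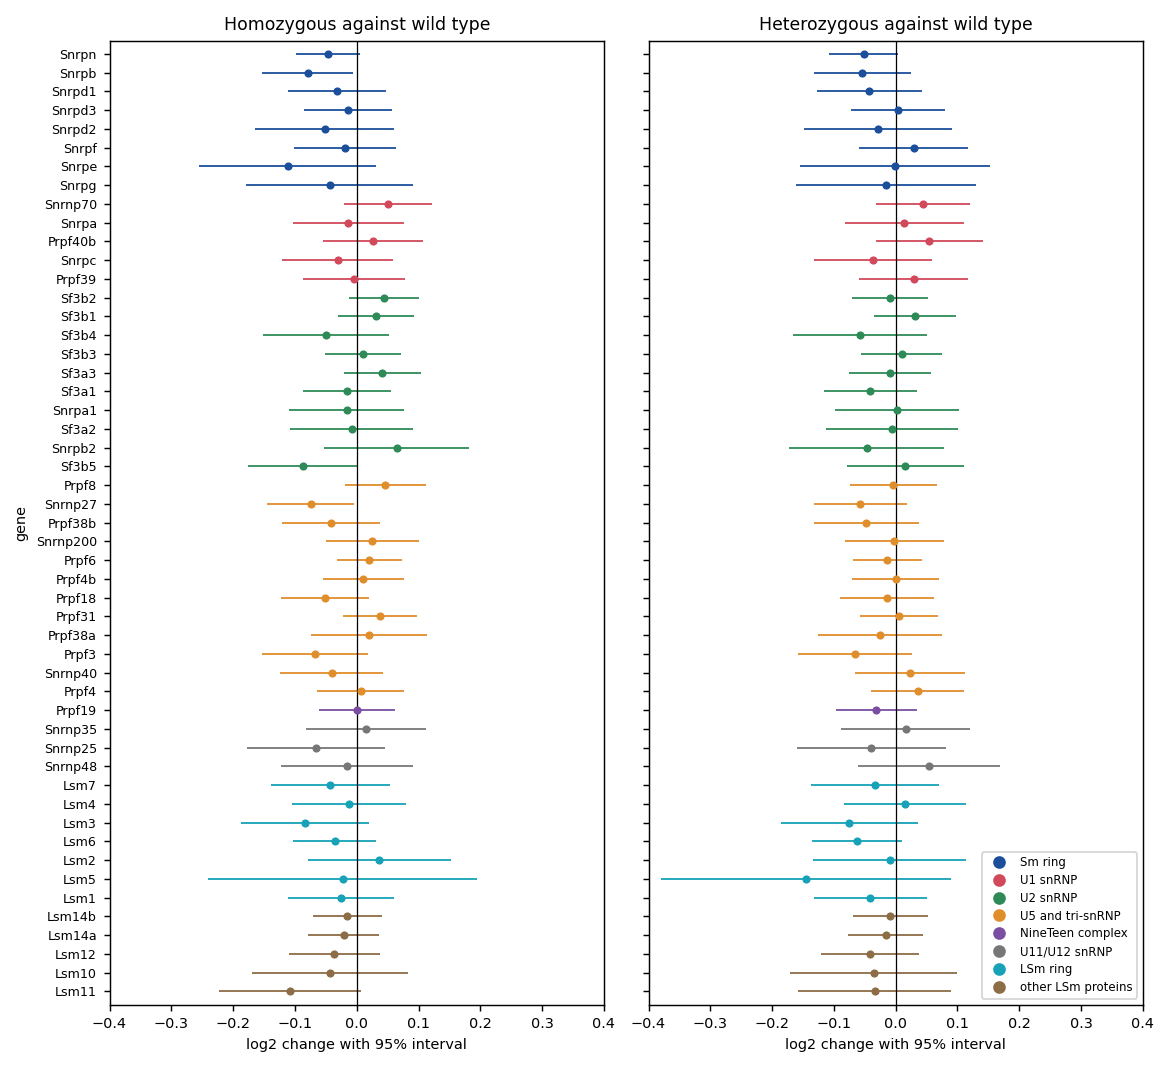
Log2 changes of 51 of the 52 genes with 95% confidence intervals, by role, for homozygous against wild type and heterozygous against wild type, which share the wild-type libraries. No gene passed the test in either comparison, and all 8 Sm ring estimates lie below 0 in homozygotes.

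The genes of the Sm ring had estimates of 1 sign in homozygotes. Of these genes 0 of 8 passed the test and 8 of 8 had estimates below 0, with a median of -0.04 and a range from -0.11 (Snrpe) to -0.0138 (Snrpd3). With tissue scores as covariates the count below 0 was 6 of 8, and without the 4 libraries of high ependymal score (heterozygous replicate 2 and homozygous replicates 1, 2 and 4) it was 7 of 8. Snrpb had the smallest p of all 52 genes. Its log2 change was -0.08 (SE 0.04, 95% interval -0.15 to -0.006), and the adjusted p from edgeR was 0.27. Without homozygous replicate 6 the change of Snrpb was -0.06. Snrpn had a log2 change of -0.05 (95% interval -0.10 to 0.006, edgeR adjusted p = 0.385), and of -0.0035 with tissue scores as covariates. Snurf, which shares exons with it, had -0.04.

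Snrpe, which codes for the small ring protein SmE, had the lowest estimate, but also 1 of the widest intervals. Its level ran from 6.49 to 8.08 CPM in wild type with a median of 7.32, from 6.37 to 8.05 in heterozygotes with a median of 7.49, and from 5.87 to 7.85 in homozygotes with a median of 6.77. The homozygous libraries reach lower, and the ranges overlap over most of their length. The log2 change was -0.11 (SE 0.07, 95% interval -0.26 to 0.03, edgeR adjusted p = 0.455). Snrpg, for SmG, had -0.04 with an interval from -0.18 to 0.09.

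Among the U1 proteins 0 of 6 passed, and the estimates in homozygotes were evenly split, with 3 above and 3 below 0 and a median of 0.01.

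Snrnp70 was the single gene of the 52 called by any alternative. Its level was 228 to 256 CPM in wild type with a median of 236, 227 to 264 in heterozygotes with a median of 245, and 228 to 256 in homozygotes with a median of 248. The 3 ranges nearly coincide, although wild-type replicate 6 is the only wild-type library above 238.1 CPM. The log2 change in homozygotes was 0.05 (SE 0.03, 95% interval -0.02 to 0.12, edgeR adjusted p = 0.503). With 3 surrogate variables it was 0.10 (edgeR adjusted p = 0.0347), and over its other alternatives the adjusted p reached 0.704. Snrpa, which binds another stem loop of U1, and Snrpc, which contacts the 5′ splice site, had -0.0135 and -0.03. Both share over 10% of their 50-base stretches with other genes.

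For U2, 0 of 10 passed, with 5 estimates above and 5 below 0 and a median of 0.001. Sf3b1, the SF3b protein that holds the branch point helix, was at 267 to 278 CPM in wild type with a median of 272, at 267 to 285 in heterozygotes with a median of 281, and at 258 to 296 in homozygotes with a median of 280. The wild-type libraries lie inside the homozygous range. Its log2 change was 0.03 (95% interval -0.03 to 0.09, edgeR adjusted p = 0.651). Sf3b2, which binds beside the branch site, had 0.04 (95% interval -0.01 to 0.10), and Sf3a3, of the SF3a complex that joins U2 to SF3b, had 0.04 (95% interval -0.02 to 0.10).

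Sf3b5, the smallest SF3b subunit, was the lowest U2 estimate in homozygotes. It ran from 19.3 to 23.9 CPM in wild type with a median of 20.6, from 20.5 to 21.5 in heterozygotes with a median of 21.1, and from 17.7 to 20.7 in homozygotes with a median of 19.8. The homozygous libraries sit at the low end, and 1 wild-type library, replicate 1, stands above the rest. The log2 change against wild type was -0.09 (SE 0.04, edgeR adjusted p = 0.32), and it was -0.05 without wild-type replicate 1. Sf3b4 (log2 change -0.05) shares 49.3% of its 50-base stretches with Gm7935, and its exons overlap Gm17690 on the opposite strand.

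**Figure D3:**
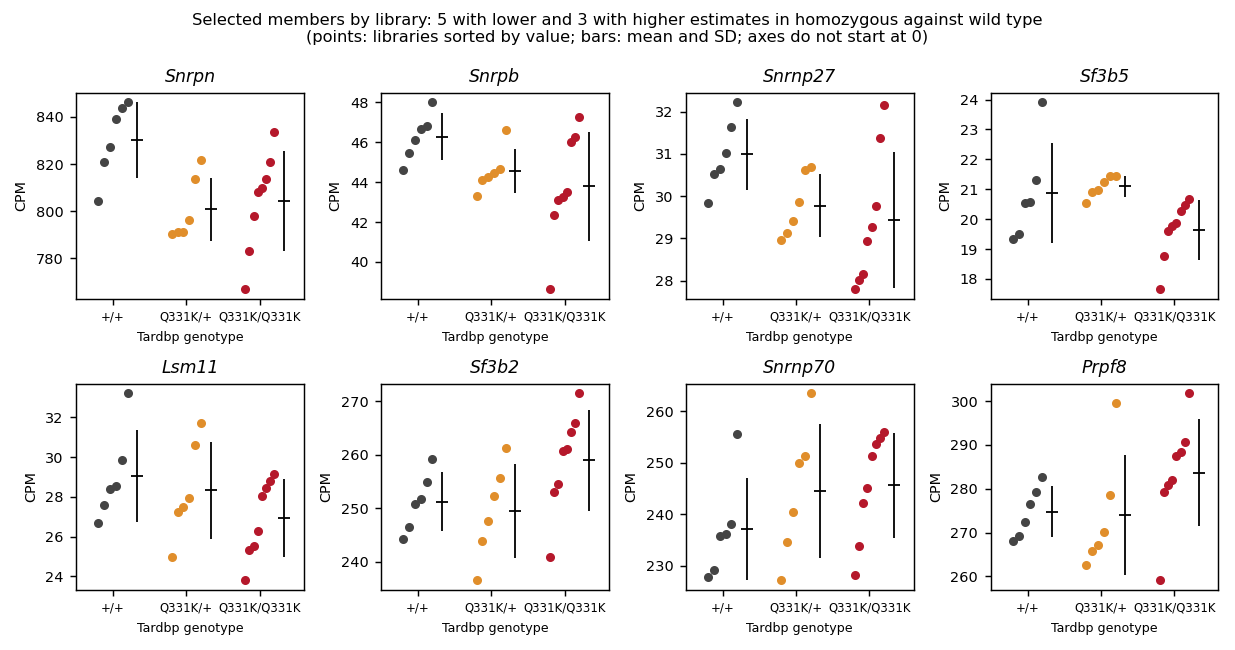
CPM in each of the 20 libraries, sorted within each genotype, with the mean and SD, for Snrpn, Snrpb, Snrnp27, Sf3b5, Lsm11, Sf3b2, Snrnp70 and Prpf8, of which the first 5 have lower and the last 3 higher estimates in homozygotes. The genotypes overlap in every panel, and the lowest Snrpb value is 38.6.

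In U5 and the tri-snRNP 0 of 12 passed, with 7 estimates above and 5 below 0 and a median of 0.0085. The large U5 proteins had narrow intervals. Prpf8 was at 268 to 283 CPM in wild type (median 275), 263 to 300 in heterozygotes (median 269) and 259 to 302 in homozygotes (median 285), so the wild-type range lies within both others. Its log2 change was 0.05 (95% interval -0.02 to 0.11, edgeR adjusted p = 0.512). Snrnp200, the helicase that unwinds U4 from U6, had a change of 0.03 (95% interval -0.05 to 0.10). Prpf31, a U4 protein whose loss causes retinitis pigmentosa in people, had 0.04 (95% interval -0.02 to 0.10).

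Snrnp27, a small protein of the tri-snRNP, was the other gene with an unadjusted p under 0.05. It ran from 29.8 to 32.2 CPM in wild type with a median of 30.8, from 29.0 to 30.7 in heterozygotes with a median of 29.6, and from 27.8 to 32.2 in homozygotes with a median of 29.1. Most homozygous libraries lie below the lowest wild-type value, and a pair of them reach the upper part of its range. The log2 change was -0.07 (SE 0.03, 95% interval -0.14 to -0.0043, edgeR adjusted p = 0.279). Prpf19, which acts on the assembled spliceosome, had 0.001 (95% interval -0.06 to 0.06). Of the U11/U12 proteins 0 of 3 passed. The estimates were -0.07 for Snrnp25, -0.02 for Snrnp48 and 0.02 for Snrnp35.

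The LSm genes fall into a pair of groups. Lsm2 to Lsm7 make the ring on U6 together with Lsm8, which is not analysed here, and with Lsm1 in place of Lsm8 the ring serves mRNA decay in the cytoplasm. Of these 7 genes 0 passed, 6 had estimates below 0 in homozygotes, and the median was -0.03. Lsm3 was lowest at -0.08 (95% interval -0.19 to 0.02, edgeR adjusted p = 0.436). Lsm5 and Lsm7 share 44.0% and 62.8% of their 50-base stretches with other genes, so their counts are uncertain. The other 5 names that the choice by symbol brings in are not proteins of the spliceosomal rings: Lsm10 and Lsm11 belong to the U7 snRNP of histone mRNA processing, Lsm14a and Lsm14b to translational repression, and Lsm12 is counted with them. Of these 0 of 5 passed and 5 had estimates below 0, with Lsm11 the lowest at -0.11 (SE 0.06, edgeR adjusted p = 0.347). Without wild-type replicate 1 the value for Lsm11 was -0.07. Leaving these 5 out, 29 of 47 estimates were below 0, with a median of -0.0157.

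With a single changed allele, 0 of the 52 genes passed the test against wild type, as did 0% of all genes tested with edgeR (0 of 16690). At an unadjusted p under 0.05 there were 0 of the 52, beside 3.19% of all genes. DESeq2 and limma voom also called 0 of the 52, and DESeq2 called 2 of all genes. The median estimate was -0.0116, beside 0.0017 over all genes, and 34 of 52 were below 0, beside 48.8%. This comparison uses the same wild-type libraries as the homozygous one, so the equal count is not separate evidence. For 51 of the 52 the 95% interval lay within 0.2 of 0. Lsm5, the gene of lowest count, was the exception, with a lower bound of -0.38. No gene kept the groups apart (0 of 52, beside 0.198% of all genes).

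By role, the estimates in heterozygotes were below 0 for 6 of 8 Sm ring genes (median -0.02), 1 of 6 U1 genes (median 0.02), 6 of 10 U2 genes, 8 of 12 U5 and tri-snRNP genes and 6 of 7 LSm ring genes. Without wild-type replicate 1 the Sm ring count was 3 of 8. Snrpn had the smallest p, with a log2 change of -0.05 (SE 0.03, 95% interval -0.11 to 0.0034, edgeR adjusted p = 0.9996). Lsm6, of the U6 ring, had -0.06, and Snrnp27 had -0.06. The raised estimates of smallest p were 0.05 for Prpf40b, 0.04 for Snrnp70 and 0.04 for the U4/U6 protein Prpf4. Prpf40b is a WW-domain protein that associates with U1. Of the 3 U11/U12 genes 1 was below 0, and the highest estimate among them was 0.05.

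Between homozygous and heterozygous libraries 0 of 52 passed, beside 0.108% of all genes tested (18 of 16690, edgeR), or 0.03% raised and 0.0779% lowered. At an unadjusted p under 0.05 there was 1 of the 52, Sf3b5, beside 11% of all genes, and DESeq2 and limma voom each called 0 of the 52. Sf3b5 had a log2 change of -0.10 (SE 0.04, 95% interval -0.19 to -0.0143, edgeR adjusted p = 0.395). Its highest homozygous value, 20.7 CPM, is just above its lowest heterozygous value, 20.5 CPM, and it is the single homozygous library above it. Snrpe had -0.11 and the U5 protein Snrnp40 -0.06. Snrpb2 (U2B″, a U2 RNA-binding protein) had 0.11 (95% interval -0.0056 to 0.23), and 0.009 with 3 surrogate variables. The median of the 52 was -0.0011, with 27 estimates below 0, beside 50.2% of all genes. The groups were kept apart by 0 of 52, beside 0.288% of all genes.

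Taking the number of changed alleles as a number from 0 to 2, 0 of 52 genes had a trend that passed, beside 1.83% of all genes tested (306 of 16690, edgeR), or 0.779% raised and 1.05% lowered. At an unadjusted p under 0.05 there were 4 of the 52, beside 16.8% of all genes. Among them were Snrpb with -0.04 per allele, Snrnp27 with -0.04 and Sf3b5 with -0.05. DESeq2 and limma voom called 0 of the 52, and 3 surrogate variables called 1, Snrnp70 (0.05 per allele, edgeR adjusted p = 0.027). All 8 Sm ring estimates were below 0, and their median was -0.02 per allele.

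In homozygotes the signs among the 52 genes moved with annotated exon length, and the median change over all genes rose with it. When the genes tested were divided into 4 classes of nearly equal size by annotated exon length, the median homozygous change over all genes was -0.0178 in the shortest class (up to 2549 bases), -0.0037 in the next, 0.002 in the third and 0.0141 in the longest (above 6531 bases). Of the 52 genes, 14 of 15 in the shortest class had estimates below 0, then 11 of 15, 6 of 10, and 3 of 12 in the longest. Their medians were -0.04, -0.015, -0.0185 and 0.0181. In heterozygotes the medians of all genes were 0.0002, 0.0006, 0.0016 and 0.0032, and of the 52 genes 12 of 15, 10 of 15, 7 of 10 and 5 of 12 had estimates below 0. The 52 genes were also split at a principal transcript length of 2105 bases. In homozygotes 20 of the 26 shorter and 14 of the 26 longer genes had estimates below 0. In heterozygotes 18 of 26 and 16 of 26 did. In both divisions by length Sf3b5 was placed by its annotated 3841 bases. Its deposited entry starts after that transcript does, so its class is uncertain. Of the 8 Sm ring genes 6 lie in the shortest class by exon length. The part of length in their signs was not tested.

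**Figure D4:**
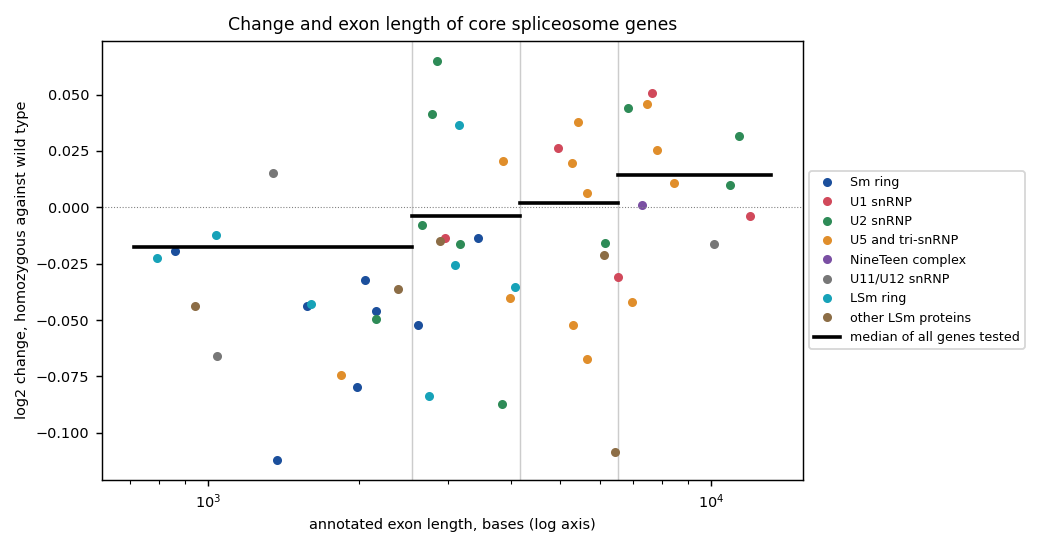
Log2 change in homozygotes against wild type for 51 of the 52 genes, by annotated exon length in bases on a log axis, with grey lines at the limits of the 4 length classes and black bars at the median of all genes tested in each class. Estimates in the shortest class are below 0 for 14 of 15 genes, and the bars rise from -0.0178 to 0.0141.

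Other parts of the splicing machinery, from a list of spliceosome genes outside the name rule and a list of snRNP assembly genes, were read beside these. Of the 77 spliceosome genes tested, 2 fell in homozygotes (beside 0.923% of all genes) and 0 rose (beside 0.641%). The median was -0.0025 with 39 below 0. The 2 that fell were Zmat2 and Snw1. Zmat2, a zinc finger protein of the tri-snRNP that leaves as the spliceosome activates, ran from 201 to 220 CPM in wild type with a median of 210, from 188 to 198 in heterozygotes with a median of 194, and from 182 to 195 in homozygotes with a median of 192. Its wild-type libraries all lie above those of both other genotypes. Of all genes tested, 0.779% had no overlap between homozygous and wild type, and 0.198% between heterozygous and wild type. DESeq2 also called Zmat2 in heterozygotes against wild type (-0.12, adjusted p = 0.0426), where edgeR called 0 genes. The log2 change in homozygotes was -0.14 (SE 0.02, edgeR adjusted p = 0.00484), and the call was lost with tissue scores as covariates (-0.10, adjusted p = 0.139).

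Snw1 (SKIP), a protein of the activated spliceosome at chr12:87449936-87472299, ran from 66.4 to 75.2 CPM in wild type with a median of 69.4, from 63.5 to 69.4 in heterozygotes with a median of 64.6, and from 60.5 to 68.0 in homozygotes with a median of 63.5. The homozygous libraries are mostly below the wild-type range and overlap its lower end. The log2 change was -0.14 (SE 0.03, edgeR adjusted p = 0.029), and its exons overlap Slirp on the opposite strand. The call did not hold under several settings: the adjusted p was 0.167 with tissue scores, 0.0543 without the 4 libraries of high ependymal score, 0.0504 with the heterozygotes out of the fit, and 0.077, 0.0513, 0.0528 and 0.0514 without wild-type replicates 1 or 3 or homozygous replicates 5 or 6. Under all 30 alternatives the log2 change itself lay between -0.16 and -0.12.

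Rnpc3, the U11/U12 protein that links both RNAs, had the highest estimate of that list at 0.14 (edgeR adjusted p = 0.0807). It was called by DESeq2 (0.14, adjusted p = 0.0385) and in edgeR with the replicate number as a block (0.17, adjusted p = 0.0434), and its exons overlap Amy1 on the same strand. Zmat5, also of U11/U12, had the lowest at -0.16 (edgeR adjusted p = 0.111). DESeq2 called Zmat5 in the trend over alleles (-0.08 per allele, adjusted p = 0.045). Ddx39b, a helicase of early assembly and mRNA export, had 0.07, and the exon-associated protein Srrm1 had 0.09, and 0.14 with 3 surrogate variables, where it was called (edgeR adjusted p = 0.0186). Of the 15 assembly genes tested, 0 passed with edgeR in homozygotes, beside 1.56% of all genes, and DESeq2 called 0. At an unadjusted p under 0.05 there were 2 of the 15, beside 16.1% of all genes. These were Clns1a, which hands Sm proteins to the SMN complex (-0.10, adjusted p = 0.131), and Phax, which exports new small nuclear RNAs (-0.09, adjusted p = 0.216). In the trend over alleles, the fit with 3 surrogate variables called Clns1a (-0.06 per allele, edgeR adjusted p = 0.0491). Gemin5, the SMN complex protein that recognises small nuclear RNAs, had 0.03, Gemin4 0.04 and Gemin7 -0.10.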

How the data were processed

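Frontal cortex RNA was measured in 20 libraries, grouped by the genotype in the labels. Per the labels' protocols, polyadenylated RNA went into stranded libraries. The submitters' processing notes name GRCm38 as the build, HISAT2 2.0.5 and Trim Galore 0.4.3. Which program, annotation and strand setting produced the counts is not given in the sources used here. The authors deposited raw whole-number counts per gene, not normalized. The 56 rows without an identifier (at most 0.0835% of a library's counts) and 124 rows with a shared name were kept. Totals of 61282647 to 111440766 counts left 139 to 268 counts for the lowest gene, Lsm5.

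Counts were tested in edgeR 4.0.16 (R 4.3.3), with TMM scaling, filterByExpr, robust quasi-likelihood dispersions and all libraries in 1 fit. The fit was first run on counts simulated from its own model. Those counts held no tissue differences between libraries, so that run cannot show how such differences affect the calls. A call means an adjusted p (Benjamini-Hochberg, over 16690 genes) under 0.05. Levels are CPM with TMM factors. Overlaps, lengths, shared 50-base stretches and sequences come from GENCODE M21 (GRCm38), where all 52 genes were found, Snrpn by its position. Of 58 pairs of libraries within a genotype 0 were identical, with a chi-square of at least 13.0 per degree of freedom.

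The genes, lists and alternatives were chosen with earlier results of these data known. Named genes were Tardbp, those called, those of smallest p in each comparison (5 in each direction for homozygous against wild type, 3 in the others), the highest and lowest of each role, the best-known subunits, and, of each list outside the rule, those called and 3 in each direction. Snrpd2, Snrpd3, Snrpf, Snrpa, Snrpc, Sf3b4, Snrnp25, Lsm3 and Lsm5 were added to complete a group or a count. Alternatives included DESeq2 1.42.0, DESeq2 size factors in edgeR, limma 3.58.1 voom with quality weights, 3 surrogate variables (sva 3.50.0), other filters, the replicate number as a block, tissue scores as covariates, leaving out the 4 libraries with an ependymal score over 0.5, fits of only the genotypes compared, and each library left out in turn. For 1 of the 52 genes, single values are not reported here, and it enters the counts and medians only.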

Additional observations from a re-analysis of the deposited data

Results flagged for a closer look

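In 3 of 87 groups of values checked, 1 library stood apart from the others of its genotype by more than Dixon's 95% limit, which chance passes in about 1 of 20 groups. Snrnp70 was at 255.6 CPM in wild-type replicate 6, and the other wild-type libraries were between 227.8 and 238.1. Prpf19 was at 175.2 CPM in heterozygous replicate 4, beside 154.5 to 162.1 in the others. Tardbp was at 215.1 CPM in the same library, beside 229.9 to 235.1 in the others.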

How the results depend on the processing

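In homozygous against wild type the number of the 52 genes called was 0 under 29 of 30 alternatives and 1 with 3 surrogate variables, and in the trend it was 0 under 28 of 29 and 1 with 3 surrogate variables. In the other 2 comparisons it was 0 under all 30. The median change of the 52 genes in homozygotes was 0.0054 with tissue scores as covariates and otherwise stayed below 0, from -0.023 to -0.0117 with 1 library left out. Over all genes, edgeR called 261 in homozygotes, DESeq2 634 and the fit with tissue scores 121. The difference in the Snrpn to Snrpb ratio between heterozygous and wild type, 0.0024, changed sign when single libraries were left out, from -0.01 to 0.019. Replicate numbers did not pair the libraries: deviations of the 18 same-numbered pairs correlated from -0.104 to 0.139, and 2 of 20 libraries correlated best with their own number. With the replicate number as a block, 0 of the 52 were called in each comparison, and 387 genes of all in homozygotes. The causes of these shifts were not tested. Lsm5, at 139 to 268 counts a library, had a homozygous interval from -0.24 to 0.20 on the log2 scale, so a change of 0.2 was not resolved for it.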

Other observations

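Among the 8 homozygous libraries, replicate 6 held the lowest value for 10 of the 52 genes and the highest for 9, and each of the other 7 held the lowest for 3 to 9 and the highest for 3 to 11. It was the lowest for Snrpb (38.6 CPM), Sf3b5 (17.7 CPM) and Lsm11 (23.8 CPM), which are singled out here after their values were seen. Without it the changes of these genes in homozygotes were -0.06, -0.07 and -0.08 on the log2 scale.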
